A study of Mus musculus with 6 samples.

Results

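The axoneme is the microtubule core of motile cilia and of the sperm tail. Outer and inner dynein arms on its doublet microtubules make the force for beating, and radial spokes and the central pair apparatus control that force. A molecular ruler sets the spacing of the arms along a doublet, the nexin-dynein regulatory complex also regulates the dyneins, and tektins run inside the doublets. Sperm assemble their tails after meiosis, but many axoneme genes are already transcribed in pachytene spermatocytes, so a testis of the first wave of meiosis can report on them before any tail exists. The genes described here were chosen by name: 46 names of axonemal dyneins, radial spoke, central pair and tektin genes and of factors that assemble or dock the dynein arms. The names Dnai1 and Dnai2 are newer symbols of Dnaic1 and Dnaic2 on this platform, which leaves 44 genes. Of these, 43 had a transcript cluster (a set of probes that together read 1 transcribed region) with a single gene symbol, out of 19938 genes tested. The remaining one, Rsph3a, was only in clusters that carry several symbols and was not analysed here. Where a gene had several clusters, the one brightest on average over the 6 arrays stood for it.

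The series holds 6 Affymetrix mouse gene arrays of whole testes from pups at postnatal day 15, of which 3 were labelled control and 3 knockout. The labels give no strain, no genotype of the controls, no driver or breeding scheme for the knockout, and do not say whether a sample was 1 animal or a pool of animals. The p-values thus reflect how far these 6 samples scatter, and part of that scatter may be technical. Values are log2 intensities in which the arrays share a common distribution (array medians 8.075 to 8.1), so a value of a gene can be compared between arrays but not with that of another gene. With 3 arrays a group, small differences cannot be measured precisely.

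The controls were not alike in these genes. Control replicate 1 was the lowest control in 36 of the 43 genes, against 25.3% of all genes tested, and lay a median of 0.32 below the mean of the other controls, against a median of 0.015 above it over all genes. Averaged over the 43 genes and set against the mean of the controls, control replicates 1, 2 and 3 lay at -0.23, 0.16 and 0.06, and knockout replicates 1, 2 and 3 at -0.35, -0.33 and -0.19. Control replicate 1 thus lay below knockout replicate 3 on this average, and the groups overlapped. Counts over the members, and the differences of the members that it moved most, are therefore also given without control replicate 1. That array was singled out by the values of these same genes. Leaving it out thus enlarges most differences and separates more groups by the choice itself. Such results describe what the array moves and are no added support. Control replicate 3 stood apart in another way: of 8 measured epididymis markers, Spink8 read 9.31 in it against 5.38 to 5.60 in the other arrays, Defb42 7.52 against 5.55 to 5.81, and Adam7 6.51 against 5.26 to 5.42 (genes chosen after their values were seen). Lcn5 was also highest there, at 7.48 against 6.53 to 6.93, while Lcn8, Lcn9, Lcn10 and Rnase10 read within the range of the other arrays.

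**Figure D1:**
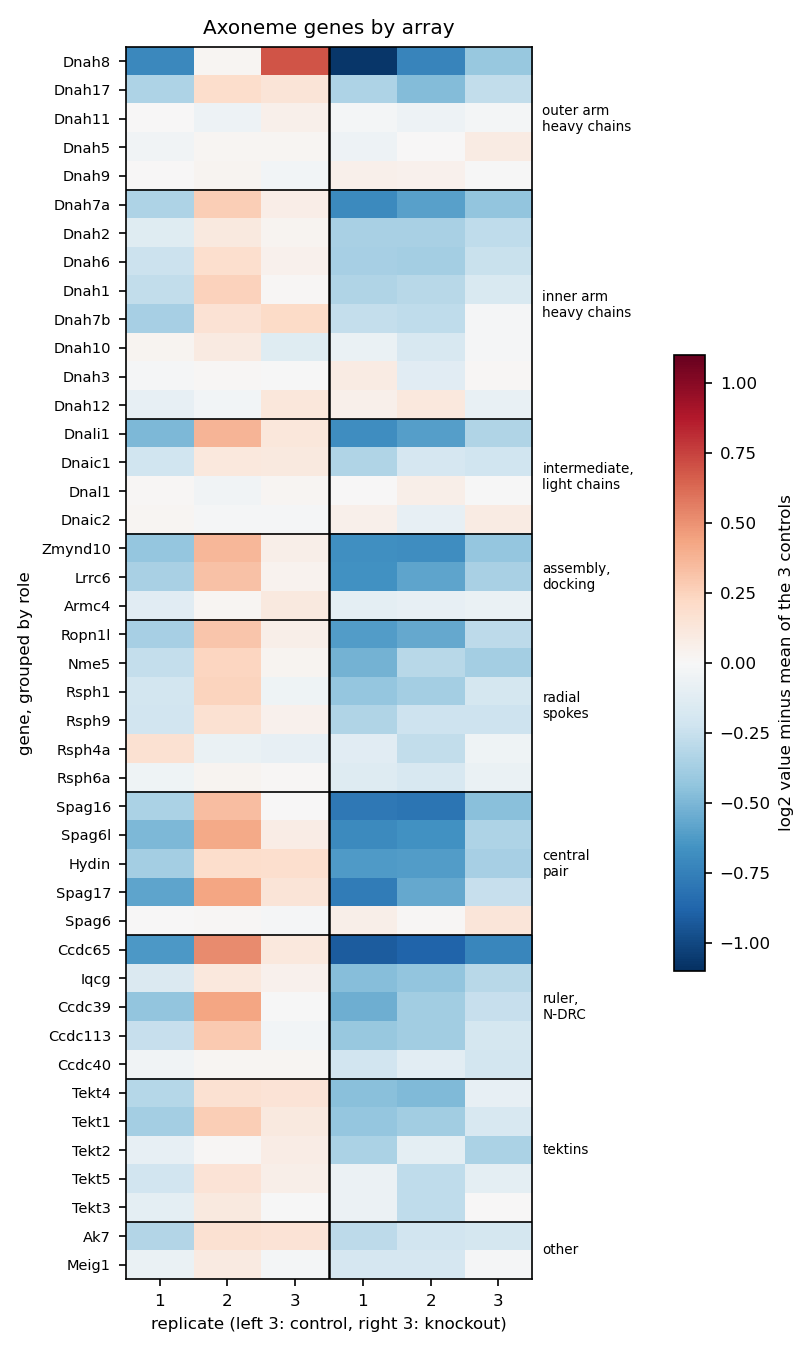
Colour gives each gene's log2 value on an array minus the mean of its 3 controls; rows are the 43 measured axoneme genes grouped by role, columns are the 6 arrays. Control replicate 1 (mean deviation -0.23) is blue for most genes, as are the knockout arrays (-0.35, -0.33 and -0.19), while Dnah5, Dnah9, Dnah11, Dnah3, Dnal1, Dnaic2 and Spag6 are near white throughout.

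Knockout testes had lower values for most axoneme genes, but no gene passed the test on its own. The knockout mean was below the control mean in 37 of 43 genes, where 48.8% of all genes were lower, and the median difference was -0.27 on the log2 scale (median fold 0.829), against 0.0033 over all genes. At an adjusted p under 0.05 in limma 0 members were called, against 0.015% of all genes (0.00502% lower and 0.01% higher). The unadjusted p was under 0.05 in 21 members with lower values and in 0 with higher values, against 6.57% and 4.2% of all genes. All 3 knockout values lay below all 3 control values in 11 members, or 25.6%, where 8.79% of all genes did so; no member had the opposite order, which 6.76% of all genes showed. A difference of at least 0.5 towards lower values was measured in 10 members, against 0.577% of all genes. In a whole testis, fewer cells of a type and less RNA per cell cannot be told apart.

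These counts changed when single arrays were left out. Without control replicate 1 the median difference was -0.40, and the knockout arrays lay below both remaining controls in 31 members (13.3% of all genes). In that setting 16 members were at least 0.5 lower (1.11% of all genes). Among the clusters that stood for a member 1 passed, that of Ccdc65 (adjusted p = 0.0430 in limma). Of all genes 0.226% passed, 0.211% lower. These shares are no matched background here, because control replicate 1 was the lowest control in only 25.3% of all genes. Without knockout replicate 3, 25 members lay lower with groups apart and 1 higher (13.1% and 12.7% of all genes). The 21 lower members at an unadjusted p under 0.05 became 31 without control replicate 1 (6.19% of all genes), 12 without control replicate 2 (5.21%) and 13 without control replicate 3 (6.13%). They became 12, 14 and 22 without knockout replicates 1, 2 and 3 (4.55%, 5.08% and 5.62%). Over the 6 fits that each lack an array, the median ran from -0.40 to -0.19. A fit with the replicate number as a block had 28 members lower and 0 higher at that p, against 6.71% and 4.03% of all genes.

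**Figure D2:**
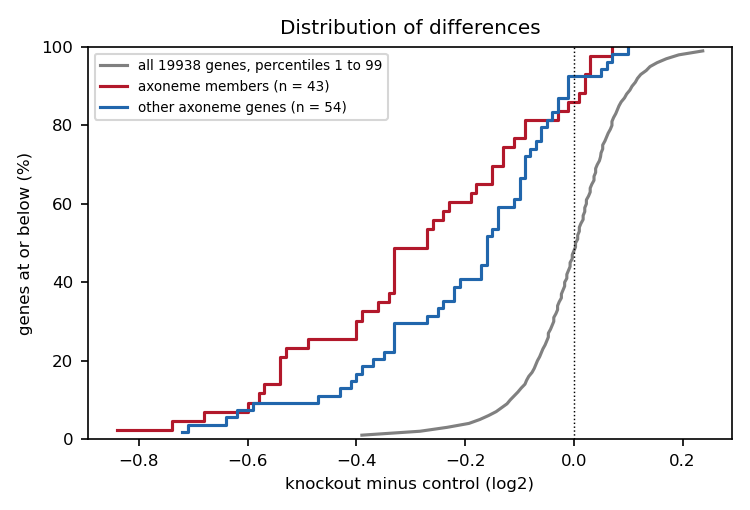
The curves give the percent of genes (vertical axis) whose knockout minus control difference on the log2 scale (horizontal axis) is at or below a value, for the 43 axoneme genes (red), the 54 other axoneme genes measured (blue) and the percentiles of all 19938 genes (grey). The median of the axoneme genes, -0.27, is reached by 2.23% of all genes, and 32 of the 43 lie below the 10th percentile of all genes, -0.12.

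Promoter sequence was available for 37 of the 43 genes, as 42 RefSeq windows of assembly GRCm38.p6 that run from 250 bases before an annotated start to 50 bases after it. These windows were searched on both strands because transcription factors of the RFX family, which bind GTTGCC-like motifs, often in pairs, are known regulators of ciliary genes. The RFX motif GTTGCC was present in 16 of the 42 windows, or 38.1%, against 12.5% of all 32851 windows. Counted by gene, that was 15 of 37 members, against 3821 of 27025 genes. Among the genes at an unadjusted p under 0.05 the motif was in 10 of 20 windows, 50%, and among the other axoneme genes listed here in 6 of 22, 27.3%. Windows of Tekt2 overlap and hold the same sites, so by gene this was 9 of 18 against 6 of 19. The split follows p-values of these same data, and a link between the motif and lower values was not tested. The X-box, a paired form that can overlap the single motif, was searched only as a strict symmetric pair with a fixed spacing. That strict form was in 0 of the 42 windows and in 0.451% of all windows. Looser forms of the X-box were not searched, so this count does not show that the promoters lack one. For other factors of ciliated or meiotic cells, the FOXJ1 motif TGTTTAC was in 3 windows (7.14%, against 3.65% of all), the MYB motif AACTGNC in 9 (21.4%, against 12.8%) and the CRE motif TGACGTCA in 2 (4.76%, against 1.79%). A match is a run of letters and shows no binding.

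The stretches that hold the RFX motif are shown for the 9 genes at an unadjusted p under 0.05 that had it, with that of Spag6, whose knockout mean was not lower, for comparison. Each is 30 bases, 5′ to 3′ on the strand of the gene, with the motif (GTTGCC or its reverse complement GGCAAC) in capitals.
Ccdc113, chr8:95534082-95534111, plus strand: ttcagttgtctaGGCAACgcgcctcagggt
Dnah7a, chr1:53706967-53706996, minus strand: tcgctcctcacaGTTGCCtgccaccctctg
Hydin, chr8:110266952-110266981, plus strand: tgcggttgctgtGGCAACagatggtaacaa
Iqcg, chr16:33056188-33056217, minus strand: cttgcgcgacgcGTTGCCatagctaccgat
Ropn1l, chr15:31453692-31453721, minus strand: tgcgcagctcggGTTGCCtggagaccgcac
Spag16, chr1:69826855-69826884, plus strand: actaGGCAACgcGTTGCCgtagtaactgcg
Spag6l, chr16:16829314-16829343, minus strand: tccggttgctgtcgGTTGCCctggagacgc
Tekt2, chr4:126325693-126325722, minus strand: gggcggttgctcGGCAACcagagccgcaaa
Zmynd10, chr9:107547324-107547353, plus strand: tcaagcgcttcaacggcttGGCAACtgccc
Spag6, chr2:18698973-18699002, plus strand: cgattccgactgGTTGCCcaggagtgtggg
The match shown begins 6 bases before the start site in Ccdc113, 13 in Hydin, 19 in Iqcg, 20 in Ropn1l, 22 in Tekt2 and 37 in Spag6. In Dnah7a it begins 200 bases before the start. Spag16 has 2 matches, at 111 and 103 bases before the start, and Iqcg has a further one, not shown, at position -119 counted from the start. In Spag6l and Zmynd10 the match lies 34 and 39 bases after the start.

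Longer stretches are given for 3 of these genes in which the bases before the start lie outside the annotated gene. Tekt2 shows a further match, 96 bases before the start, and Spag6l carries the CRE motif 9 bases before its start, in capitals in its sequence.
Tekt2, chr4:126325689-126325838, minus strand: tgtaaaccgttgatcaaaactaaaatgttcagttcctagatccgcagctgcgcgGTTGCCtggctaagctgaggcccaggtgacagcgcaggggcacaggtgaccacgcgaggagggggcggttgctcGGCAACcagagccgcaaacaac
Ropn1l, chr15:31453690-31453839, minus strand: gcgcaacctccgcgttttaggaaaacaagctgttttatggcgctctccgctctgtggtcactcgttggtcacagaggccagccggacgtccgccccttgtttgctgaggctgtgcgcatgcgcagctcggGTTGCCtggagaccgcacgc
Spag6l, chr16:16829364-16829563, minus strand: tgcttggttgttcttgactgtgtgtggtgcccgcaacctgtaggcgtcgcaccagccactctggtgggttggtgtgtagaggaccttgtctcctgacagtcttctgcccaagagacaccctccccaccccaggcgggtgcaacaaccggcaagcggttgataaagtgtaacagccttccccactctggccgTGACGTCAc
The other CRE match was in Dnah6, 175 bases before the start (chr6:73221788-73221817, minus strand): ctgacaactaaTGACGTCAaatactctggg

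Among the factors themselves, a list of 10 transcription factors of ciliary and spermatocyte genes had a median difference of -0.12, with 9 lower and 1 higher. There were 3 lower at an unadjusted p under 0.05, against 6.57% of all genes, and 0 were called (median -0.14 without control replicate 1). Rfx2, an RFX factor needed for spermatid development, read 9.49, 9.83 and 9.66 in the controls and 9.38, 9.41 and 9.32 in the knockouts, a difference of -0.29 (SE 0.084, adjusted p = 0.359). Rfx4 read 7.85, 8.58 and 8.20 against 7.72, 7.61 and 7.64 (-0.55, SE 0.16, adjusted p = 0.360), and Tcfl5, a factor of spermatocytes, differed by -0.34 (SE 0.075, adjusted p = 0.294). In these 3 genes every knockout value was below every control value, as in 5 of the 10 on the list and in 8.79% of all genes. Of the other RFX factors listed, Rfx1 differed by -0.09 (SE 0.043) and Rfx3, the 1 higher gene, by 0.06 (SE 0.085). Mybl1, a MYB factor, differed by -0.06 (SE 0.051), and Crem, a CRE factor, by -0.16 (SE 0.13). Foxj1, the factor of motile multiciliated cells, overlapped between groups, with 6.62, 6.76 and 6.60 against 6.68, 6.46 and 6.65 (-0.06, SE 0.073). Whether Foxj1 read above background was not tested, nor was a link of any factor to the axoneme genes.

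The outer dynein arm is built on heavy chains, the motor subunits, and these differed in whether they were lower. Dnah8 and Dnah17 encode the outer arm heavy chains of sperm. Dnah17 read 7.73, 8.26 and 8.21 in control replicates 1 to 3 and 7.73, 7.59 and 7.80 in knockout replicates 1 to 3, a difference of -0.36 (SE 0.14, unadjusted p = 0.0347, adjusted p = 0.428). Its knockout values lay with control replicate 1 and below the other controls. Dnah8 spread widely, at 9.28, 10.01 and 10.68 against 8.92, 9.26 and 9.57 (-0.74, SE 0.33, 95% interval -1.52 to 0.04, adjusted p = 0.490), and control replicate 1 again lay among the knockouts. Without control replicate 1 the differences were -0.53 for Dnah17 and -1.1 for Dnah8, and without control replicate 3 they were -0.29 and -0.4. Dnah5, Dnah9 and Dnah11, which encode outer arm heavy chains of airway and other cilia, had differences of 0.01, 0.03 and -0.03 with 95% intervals inside -0.14 to 0.13. Their control means were 6.34, 7.07 and 6.71. Whether these ciliary chains read above background was not tested, and a gene at background cannot read lower. The contrast between the sperm and the ciliary chains was not tested.

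Inner arm heavy chains, motors that shape the bend, were lower in 7 of 8 genes, against 48.8% of all genes, with a median of -0.23. Of the 8 genes 3 were lower at an unadjusted p under 0.05, against 6.57% of all genes. Dnah2 had one of the smallest p-values of all the members: it read 8.36, 8.60 and 8.52 in the controls and 8.14, 8.14 and 8.21 in the knockouts, a difference of -0.33 (SE 0.066, fold 0.796, unadjusted p = 0.00147, adjusted p = 0.287). Dnah7a read 8.14, 8.75 and 8.56 against 7.78, 7.89 and 8.05 (-0.58, SE 0.15, adjusted p = 0.322; without control replicate 1 -0.75, adjusted p = 0.0615). Dnah6 read 6.33, 6.75 and 6.61 against 6.20, 6.19 and 6.32 (-0.33, SE 0.10, adjusted p = 0.375). In all of these the groups were apart, in Dnah6 narrowly, with control replicate 1 at 6.33 and knockout replicate 3 at 6.32. Dnah7b, a close relative of Dnah7a on the same chromosome, read 8.09, 8.61 and 8.66 against 8.19, 8.17 and 8.44 (-0.19, SE 0.15), with control replicate 1 the lowest array and a difference of -0.37 without it. The probes of such near copies may read each other, and how the clusters divide them is uncertain. Dnah1 differed by -0.27 (SE 0.12), Dnah10 by -0.09, Dnah3 by -0.01 and Dnah12 by 0.03.

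Genes with several clusters show whether a value depends on the cluster read. All 3 clusters of Dnah6 were lower (-0.51 to -0.33, each at an unadjusted p under 0.05), and the second cluster of Dnah17 differed by -0.67 (SE 0.24, adjusted p = 0.402). The 33 clusters of Dnah3 had a median of 0.01 and ran from -0.17 to 0.13, and the 5 of Dnah10 ran from -0.09 to 0. Armc4 encodes a protein that docks the outer arm to the doublet, and its clusters disagreed. In the cluster with the higher mean it read 5.64, 5.79 and 5.87 against 5.66, 5.68 and 5.69 (-0.09, SE 0.063), and in the other 5.30, 5.59 and 5.55 against 5.12, 5.16 and 5.13 (-0.34, SE 0.077, adjusted p = 0.294). Without control replicate 1 that cluster passed (-0.43, adjusted p = 0.0389), as did a cluster of Dnah6 (-0.74, adjusted p = 0.0238) and the second of Dnah17 (-0.96, adjusted p = 0.0378). None of these 3 is the cluster that stood for its gene, and none passed with all 6 arrays.

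**Figure D3:**
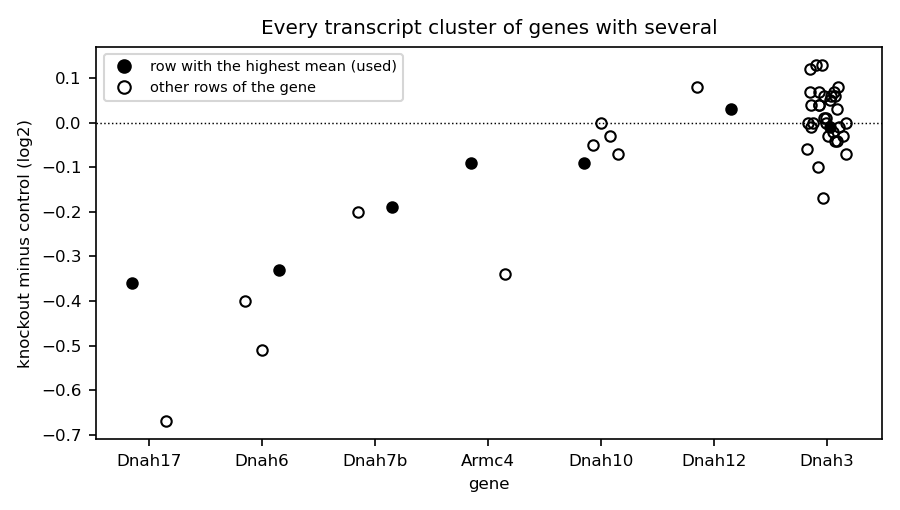
Each circle is 1 transcript cluster of an axoneme gene with several; the vertical axis is the knockout minus control difference on the log2 scale, and filled circles mark the cluster used for the gene. All 3 clusters of Dnah6 lie below 0 (-0.51 to -0.33) while the 33 of Dnah3 lie on both sides of it (-0.17 to 0.13).

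Intermediate and light chains hold the heavy chains in the arm. Dnaic1, an intermediate chain of the outer arm, read 8.72, 9.05 and 9.04 in the controls and 8.61, 8.75 and 8.72 in the knockouts (-0.24, SE 0.094, adjusted p = 0.429), and control replicate 1 lay among the knockouts. Dnali1, a light intermediate chain of inner arms, read 8.37, 9.24 and 8.99 against 8.18, 8.26 and 8.54 (-0.54, SE 0.21, adjusted p = 0.437), with the same overlap and a difference of -0.79 without control replicate 1. Dnaic2, the partner of Dnaic1 in the outer arm, differed by 0.02 (SE 0.056), and Dnal1, a light chain, by 0.02 (SE 0.043), so these 4 genes did not all go the same way.

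Dynein arms are put together in the cytoplasm by assembly factors before they enter the tail. Zmynd10 read 9.11, 9.90 and 9.60 in the controls and 8.86, 8.85 and 9.11 in the knockouts, a difference of -0.60 (SE 0.19, fold 0.661, adjusted p = 0.375). Lrrc6, whose product binds that of Zmynd10, read 8.49, 9.17 and 8.89 against 8.18, 8.27 and 8.49 (-0.54, SE 0.17, adjusted p = 0.375). In both genes knockout replicate 3 and control replicate 1 had the same value to 2 decimals. Without control replicate 1 the differences were -0.81 and -0.72 (adjusted p = 0.0807 and 0.0963), and without control replicate 2 they were -0.42 and -0.38.

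All 6 measured radial spoke genes were lower, against 48.8% of all genes, with a median of -0.30. Of the 6 genes 5 were lower at an unadjusted p under 0.05, against 6.57% of all genes. Nme5, a spoke protein with a nucleoside diphosphate kinase domain, read 8.30, 8.80 and 8.59 in the controls and 8.04, 8.26 and 8.19 in the knockouts (-0.40, SE 0.12, adjusted p = 0.375). Rsph9, of the spoke head, read 8.20, 8.57 and 8.45 against 8.08, 8.18 and 8.18 (-0.26, SE 0.092, adjusted p = 0.403). Groups were apart in both, with control replicate 1 just above the highest knockout value. Ropn1l, a spoke protein that binds A-kinase anchoring proteins, read 10.30, 10.97 and 10.73 against 10.05, 10.10 and 10.38 (-0.49, SE 0.17, adjusted p = 0.393). Rsph1 read 10.27, 10.72 and 10.43 against 10.05, 10.10 and 10.28 (-0.33, SE 0.12, adjusted p = 0.402). Control replicate 1 overlapped the knockouts in both.

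Rsph6a and Rsph4a are related spoke head genes, the first known from sperm and the second from airway cilia. Rsph6a varied little within a group, at 7.68, 7.75 and 7.74 against 7.58, 7.55 and 7.65, and the groups were apart (-0.13, SE 0.046, adjusted p = 0.402). Rsph4a read 5.57, 5.33 and 5.32 against 5.28, 5.14 and 5.36, and overlapped (-0.15, SE 0.086). In Rsph4a control replicate 1 was the highest array, and without it the difference was -0.06. Whether Rsph4a read above background was not tested.

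Central pair genes had the lowest role median together with the assembly and docking genes, at -0.54 each. Of the central pair genes 4 of 5 were lower, against 48.8% of all genes. Spag16, a protein of the central pair, read 7.51, 8.20 and 7.86 in the controls and 7.07, 7.05 and 7.40 in the knockouts, a difference of -0.68 (SE 0.17, fold 0.623, unadjusted p = 0.00539, adjusted p = 0.320). Every knockout value lay below every control value, and without control replicate 1 the difference was -0.86. Hydin, a very large central pair protein, read 7.62, 8.19 and 8.18 against 7.37, 7.38 and 7.63 (-0.54, SE 0.16, adjusted p = 0.360), with knockout replicate 3 just above control replicate 1. Without control replicate 1 Hydin came to -0.72 with an adjusted p = 0.0553, and without control replicate 2 to -0.44 (adjusted p = 0.585). Spag17 differed by -0.53 (SE 0.25, adjusted p = 0.510). It had one of the wider control ranges, from 7.47 in control replicate 1 to 8.48 in control replicate 2. Its difference was -0.82 without control replicate 1 and -0.31 without control replicate 2.

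Mice carry a pair of closely related SPAG6 genes, and they gave different values. Spag6l read 9.28, 10.19 and 9.86 in the controls and 9.08, 9.11 and 9.44 in the knockouts (-0.57, SE 0.22, unadjusted p = 0.0348, adjusted p = 0.428). Spag6 read 7.71, 7.72 and 7.69 against 7.77, 7.72 and 7.84 (0.07, SE 0.045, 95% interval -0.04 to 0.18), the largest positive difference among the 43 genes. Without control replicate 1 the differences of Spag6l and Spag6 were -0.82 and 0.07, and without control replicate 2 they were -0.36 and 0.08. Probes of near copies may read both, and the difference between the 2 genes was not tested.

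The molecular ruler and the nexin-dynein regulatory complex held the members with the smallest p-value and the largest difference. Iqcg, a subunit of the complex needed for sperm tail formation, read 8.87, 9.14 and 9.07 in the controls and 8.56, 8.59 and 8.72 in the knockouts, a difference of -0.40 (SE 0.079, fold 0.756, unadjusted p = 0.0013, adjusted p = 0.275; -0.48 without control replicate 1). Ccdc65, another subunit, read 8.25, 9.40 and 9.0 against 7.97, 8.0 and 8.17, a difference of -0.84 (SE 0.26, fold 0.560, 95% interval -1.44 to -0.23, adjusted p = 0.374). Both genes had separate groups, and in Ccdc65 control replicate 1 lay much nearer the knockouts than the other controls. Without it the difference of Ccdc65 was -1.15 (SE 0.13, fold 0.45, adjusted p = 0.0430), a call that all 6 arrays together did not give. Without control replicate 2 instead, the difference of Ccdc65 was -0.58 (adjusted p = 0.581).

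Ccdc39 and Ccdc40 form the ruler, which sets the repeat along the doublet. Ccdc40 was tight within groups, at 7.86, 7.92 and 7.92 against 7.69, 7.78 and 7.70, and every knockout value was below every control value (-0.18, SE 0.045, unadjusted p = 0.00535, adjusted p = 0.320). Ccdc39 read 8.90, 9.77 and 9.33 against 8.80, 8.95 and 9.08 and overlapped (-0.39, SE 0.20, adjusted p = 0.540). Its difference was -0.61 without control replicate 1 and -0.17 without control replicate 2. Ccdc113 read 7.17, 7.71 and 7.39 against 7.01, 7.04 and 7.23 (-0.33, SE 0.13, adjusted p = 0.447), with knockout replicate 3 above control replicate 1.

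All 5 tektin genes, which encode filament proteins of the doublets, were lower, against 48.8% of all genes, with a median of -0.27. Tekt2 had separate groups, at 7.67, 7.77 and 7.84 in the controls and 7.41, 7.65 and 7.41 in the knockouts (-0.27, SE 0.079, adjusted p = 0.359). The other tektins overlapped and were not at an unadjusted p under 0.05: Tekt4 differed by -0.34 and Tekt1 by -0.33 (SE 0.16 each), Tekt5 by -0.15 and Tekt3 by -0.11. Without control replicate 1 these came to -0.50, -0.51, -0.26 and -0.16. Meig1, needed for building the sperm tail together with Spag16, differed by -0.13 (SE 0.067), and Ak7, an adenylate kinase of cilia and flagella, by -0.23 (SE 0.13). Ak7 read 8.62, 9.11 and 9.09 against 8.65, 8.73 and 8.75, so that control replicate 1 was the lowest array. The difference of Ak7 was -0.39 without it.

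**Figure D4:**
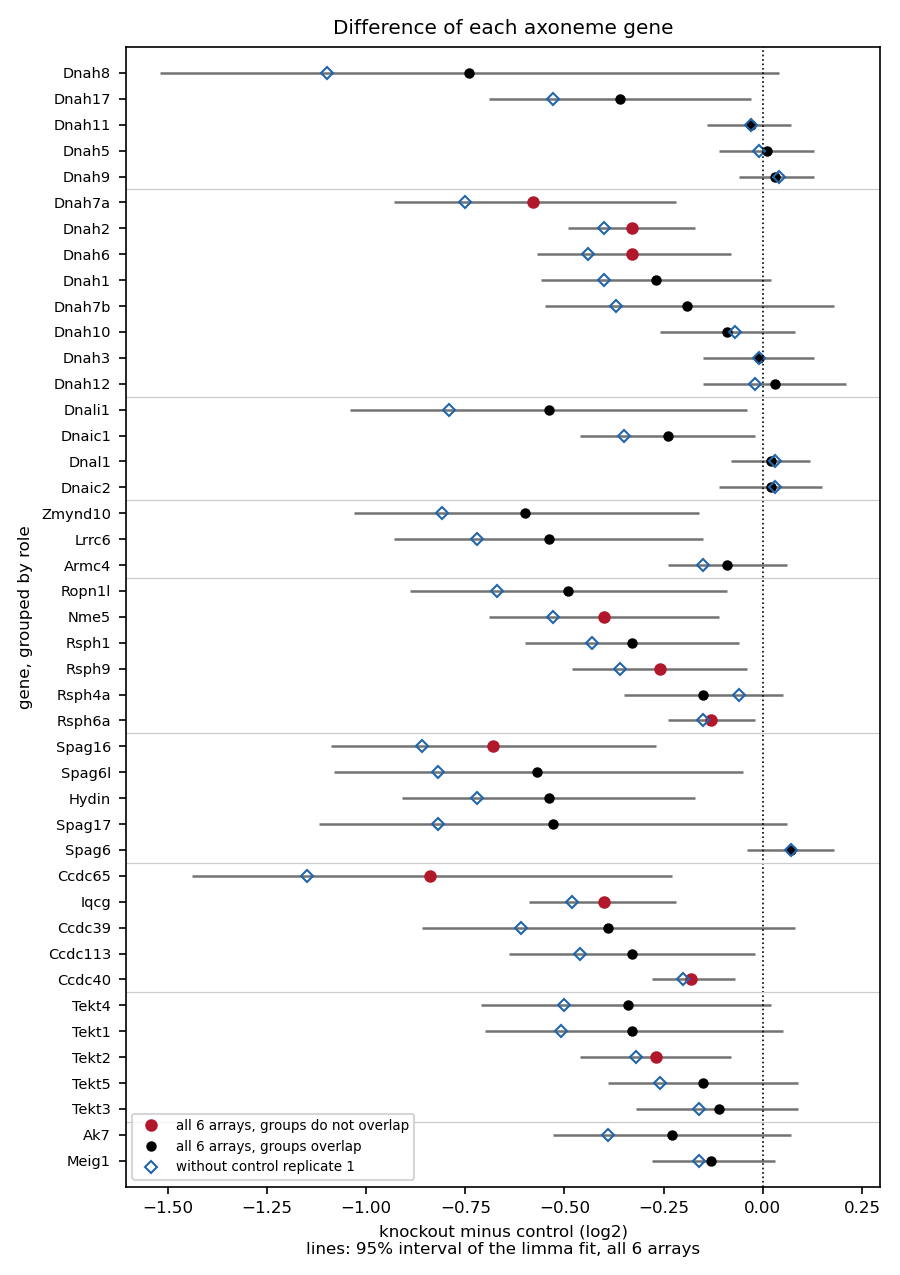
Points give the knockout minus control difference of each of the 43 genes on the log2 scale with the 95% interval of the limma fit over 6 arrays, red where the groups did not overlap (11 genes), and open diamonds give the difference without control replicate 1. Diamonds lie to the left of the points in most genes (median -0.40 against -0.27).

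Beyond the named members, a list of 61 other axoneme gene names gave 54 measured genes, of which 50 were lower and 4 higher, with a median of -0.16 (-0.21 without control replicate 1). Of these 20 were lower and 0 higher at an unadjusted p under 0.05, against 6.57% and 4.2% of all genes. In 11 all knockout values lay below all control values, against 8.79% of all genes, and 0 were called in limma. The smallest p-values belonged to Stk36, a kinase-like protein needed for central pair formation (-0.21, SE 0.041, adjusted p = 0.262), Enkur (-0.40, SE 0.11), the dynein assembly factor Dnaaf4 (-0.33, SE 0.096) and Cfap57 (-0.47, SE 0.15), with adjusted p-values of 0.347 to 0.377 in the last 3. Stk36 read 8.89, 8.85 and 8.92 against 8.65, 8.68 and 8.69, with control replicate 1 between the other controls. The count of 20 was 30 without control replicate 1, and 6, 6, 5 and 8 without control replicate 2, control replicate 3, knockout replicate 1 and knockout replicate 2. A list of 11 sperm tail sheath and dense fibre genes, most of them known from spermatids, had a median of -0.02 (-0.01 without control replicate 1). In it 7 were lower and 4 higher, with 2 lower at an unadjusted p under 0.05, against 6.57% of all genes. Whether the genes of the sheath and dense fibre list read above background at this age was not tested. In that list Odf4 differed by -0.84 (SE 0.28, adjusted p = 0.385) and Spata18 by -0.26 (SE 0.083).

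Markers of pachytene spermatocytes showed the same order of arrays as the axoneme genes. Of 16 markers 15 were lower and 1 higher, with a median of -0.26. There were 9 lower at an unadjusted p under 0.05, where 6.57% of all genes were lower and 4.2% higher. With all arrays 0 were called, and without control replicate 1 there were 2 (0.211% of all genes lower). The mean over the list lay at -0.29, 0.18 and 0.10 in control replicates 1 to 3, relative to the control mean. In knockout replicates 1 to 3 it lay at -0.45, -0.41 and -0.23. The level of that list ran from 9.09 to 9.56 in controls and from 8.92 to 9.15 in knockouts. Markers of earlier spermatocytes did not set control replicate 1 apart, which lay at -0.02. Of 11 such markers 10 were lower, with a median of -0.04. At an unadjusted p under 0.05 there were 3 lower (Spo11 -0.35, Stag3 -0.22 and Rec8 -0.40), against 6.57% of all genes. The level of these markers ran from 10.76 to 10.83 in controls and from 10.61 to 10.81 in knockouts. For 11 spermatid markers the median was -0.01, with 6.79 to 6.84 in controls and 6.79 to 6.81 in knockouts. Whether the spermatid markers read above background at this age was not tested, and genes at background cannot read lower. For 12 spermatogonia markers the median was -0.11 (9.84 to 9.92 against 9.79 to 9.83), and 0 were called. At an unadjusted p under 0.05 there were 6 lower (among them Sall4, -0.30) and 2 higher (Gfra1, 0.39, and Etv5, 0.25). Over all genes 6.57% were lower and 4.2% higher at that p. For 12 Sertoli markers the median was 0.06 (11.56 to 11.61 against 11.64 to 11.68), with 10 higher and 2 lower and 0 called. In 4 of them every knockout value lay above every control value, against 6.76% of all genes. Kitl (0.28, SE 0.041, adjusted p = 0.235 in limma) was the 1 higher at an unadjusted p under 0.05, against 4.2% of all genes. For 5 Leydig markers the median was 0.37 (9.50 to 9.86 against 9.76 to 9.97, which overlap), with 4 higher and 1 lower. Among them Cyp11a1 (0.37) had every knockout value above every control value, and Hsd17b3 (-0.43) had the reverse. For 6 peritubular myoid markers the median was -0.02, with 4 lower and 2 higher. For 9 macrophage markers the median was 0.13 (8.88 to 9.01 against 9.03 to 9.09), with 9 higher, 0 lower and 0 called. At an unadjusted p under 0.05 there were 3 higher macrophage markers, against 4.2% of all genes. In 3 every knockout value lay above every control value, against 6.76% of all genes. The part of the pachytene markers in the axoneme result was not tested.

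Motile cilia in this region of the body also belong to the multiciliated cells of the efferent ducts. Of 12 markers of those cells, 1 of which is the member Tekt1, 8 were lower and 4 higher with a median of -0.04, 0 were at an unadjusted p under 0.05, and their level ran from 7.40 to 7.56 in controls and from 7.39 to 7.46 in knockouts. The smallest p-values in that list belonged to Ccno (-0.10, SE 0.041) and Deup1 (-0.14, SE 0.065). In both all knockout values lay below all control values, and Tppp3 (0.08) had the opposite order. Over all genes 8.79% showed the first order and 6.76% the opposite. Mcidas, which commits cells to many cilia, differed by -0.03 (SE 0.055); it and Foxj1 were named after their values were seen. The epididymis list, led by control replicate 3, lay at -0.32, -0.30 and 0.63 in the controls and at -0.20, -0.38 and -0.29 in the knockouts. Without control replicate 3 the median difference of the axoneme genes was -0.26.

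**Figure D5:**
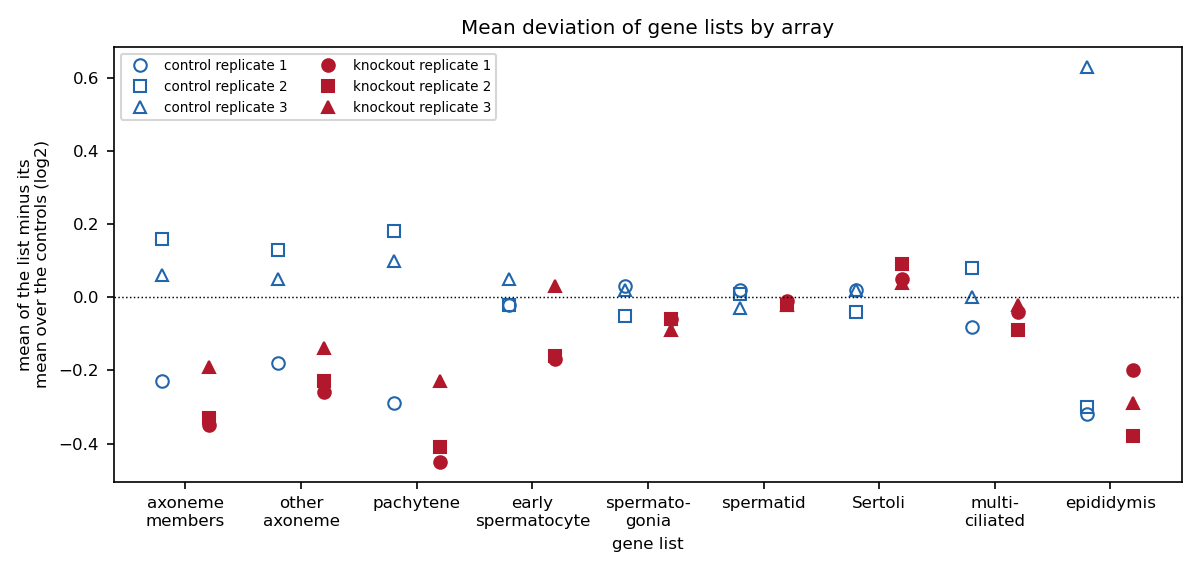
For each gene list (horizontal axis) the vertical axis gives the mean over its genes on an array minus the mean over the 3 controls, on the log2 scale, with open blue symbols for controls and filled red symbols for knockouts. Control replicate 1 lies low with the axoneme (-0.23) and pachytene (-0.29) lists but not with the early spermatocyte list (-0.02), and control replicate 3 stands out in the epididymis list (0.63).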

How the data were processed

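Each of 6 Affymetrix arrays carried the testis RNA of 1 sample (3 control, 3 knockout), after Trizol extraction, column purification and biotin labelling, per the labels' protocols. The authors deposited log2 values made with RMA, a method that corrects background, gives arrays a common distribution and summarises probes, in Affymetrix Expression Console, per the submitters' processing notes; no version, and no genome build for the probes, is given in the sources used here. Quantile normalisation hides a change of all transcripts together, and RMA compresses differences of dim clusters.

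Of 35556 clusters, 21789 with 1 gene symbol in the platform annotation were fitted without covariates by lmFit and eBayes of limma 3.58.1 in R 4.3.3, and p-values were adjusted over all 21789 by Benjamini and Hochberg's method (BH). Members were then read from 1 cluster per gene, and backgrounds were counted over 19938 genes the same way. Array values are given for members at an unadjusted p under 0.05 or with separate groups, the rest by difference, and up to 4 genes of other lists by p. Array values of Ak7, Ccdc39, Dnah7b, Dnah8, Rsph4a, Spag6, Spag17 and Armc4, and several marker and transcription factor genes, were added after they were seen. The members, lists and motifs were chosen with earlier results of these data known. The fit was tested on simulated data. Alternatives were the replicate number as a block, all clusters tested, dim clusters (mean under 6) left out, an intensity trend with robust prior, arrays centred on their medians, the mean over a gene's clusters, and leaving out each array. Chromosomes and promoter sequences are RefSeq's, assembly GRCm38.p6. The targeted gene is not reported here; genotypes were taken from the labels without a check on the arrays.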

Additional observations from a re-analysis of the deposited data

How the results depend on the processing

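The median difference of the 43 members stayed below 0 in all 12 alternatives, and 38 members kept their direction in all of them. The others changed sign near 0: Dnah3 came to 0.015 with the mean over its clusters and ranged from -0.05 to 0.052 when arrays were left out, and in those leave-outs Dnah12 ranged from -0.017 to 0.09, Dnah5 from -0.03 to 0.04, Dnaic2 from -0.015 to 0.08 and Dnal1 from -0.002 to 0.03. Leaving out 1 array gave medians of -0.40 to -0.19 and 0 to 1 members called (0.226% of all genes without control replicate 1). It gave 12 to 31 members at an unadjusted p under 0.05, where 4.55% to 6.19% of all genes were lower. Members with separate groups numbered 11 to 31. Over all genes, 8.79% were lower with separate groups with all arrays, 13.3% without control replicate 1 and 13.1% without knockout replicate 3. That share was not counted for the other leave-outs. Among the other axoneme genes, leaving out 1 array gave 5 to 30 at an unadjusted p under 0.05. With an intensity trend and robust prior that last count was 13. The control and knockout samples share replicate numbers, but same-numbered arrays did not deviate together in every pair (correlations of 0.166, -0.054 and 0.17 over clusters), so the numbers were not taken as pairs. Replicates 1 and 3 of each group correlated best with their own number, and replicate 2 of each group did not. With the replicate block 28 members were at an unadjusted p under 0.05 and 0 were called. With 2 arrays left in a group, the fit assumes that they vary like the other arrays. The smallest adjusted p of a member over these settings, in the cluster that stood for it, was 0.0430 (Ccdc65 without control replicate 1).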
